A study of Mus musculus with 6 samples.

Results

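The 10 genes described here encode the proteins with which the mouse liver makes, conjugates, moves and senses bile acids. They were chosen by name for these roles, with earlier results of these data known, and make up 10 of the 54446 genes listed. mRNA libraries were sequenced from 6 livers, 1 per mouse. Of these, 3 came from wild-type (WT) C57BL/6J males and 3 from Fmo5-/- males, which lack the flavin-containing monooxygenase FMO5 in all tissues and throughout life and were kept on the same background. All mice were 32 weeks old and ate a standard chow diet, and tissue was taken in the morning. The comparison asks how hepatic expression differs without FMO5.

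Bile acids are made from cholesterol in hepatocytes. CYP7A1 starts the classical route, CYP27A1 and CYP7B1 act in the alternative route, and CYP8B1 directs the product towards cholic acid. The product is activated with coenzyme A by SLC27A5, joined to taurine or glycine by BAAT, exported across the canalicular membrane by ABCB11 (the bile salt export pump) and, after passage through the gut, taken back from portal blood by SLC10A1 (NTCP). The farnesoid X receptor FXR, encoded by Nr1h4, senses bile acids in the hepatocyte and induces Nr0b2, whose product, the small heterodimer partner SHP, represses synthesis.

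Counts on genes ranged from 44886286 to 52338675 per library, and Fmo5 separated the genotypes as labelled. Its normalized counts (reads on the gene scaled to the mean effective library size) were 39807, 37405 and 30240 in WT mice and 1071, 1102 and 1194 in Fmo5-/- mice, a log2 fold change of -5.00 ± 0.14 (SE), with an adjusted p of 2.8e-07 by edgeR's quasi-likelihood test. Hepatocyte transcripts were abundant, as the label liver implies, and their 8 markers summed to 104400 to 137600 CPM (counts scaled to 1e6 per library) in WT and 107200 to 134300 in Fmo5-/- livers, and edgeR and DESeq2 called none of them (0 at an unadjusted p under 0.05). Markers of Kupffer cells, the resident macrophages of the liver, differed: all 6 were higher in Fmo5-/- livers, beside 8501 of all 16734 genes tested. Their sum was 151 to 179 CPM in WT and 239 to 443 CPM in Fmo5-/- livers. Of these 6, edgeR called Clec4f (adjusted p 0.0275), beside 1.37% of all tested genes in either direction. DESeq2 called 5, beside 8.96%. The edgeR call of Clec4f held without WT mouse 3 or Fmo5-/- mouse 3 and was lost without any of the others, where the adjusted p reached at most 0.102. The part of this difference in the values below was not tested, and in whole liver a change in the number of cells of a type cannot be told apart from a change in RNA per cell. The 6 markers of ileal enterocytes summed to 44.2 to 62.8 CPM in WT and 29.5 to 34.7 CPM in Fmo5-/- livers, and without Slc10a2 to 0.195 to 0.23 and 0.261 to 0.84 CPM. Slc10a2, which is also a bile duct gene, had 2148 to 3055 normalized counts in WT and 1398 to 1681 in Fmo5-/- livers. Vil1 had 7.81 to 10.2 and 10.8 to 16.8, and Muc13 had 1.02 to 3.35 and 0.918 to 9.32. Fgf15, Fabp6 and Alpi were at 0 in every library except Fmo5-/- mouse 1, where Fabp6 had 10.3 and Alpi 4.66 normalized counts and Fgf15 remained at 0.

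Across the 10 bile acid genes the mean was lower in Fmo5-/- livers for 9 and higher for 1, Nr0b2, and the differences were small. The lowest log2 fold changes were those of Baat and Cyp8b1, both at -0.48, and the highest was that of Nr0b2, at 0.0078. The median over the 10 genes was -0.19, beside 0.0058 over all 16734 genes tested and -0.06 over the 7819 tested genes with a mean of at least 500 normalized counts, a level that all 10 exceeded and at which 63.95% of genes had a lower mean.

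At an adjusted p under 0.05, edgeR called 0 of the 10, against 1.37% of all tested genes and 1.61% of those with a mean of at least 500. At an unadjusted p under 0.05 by edgeR, 3 of the 10 were lower (Baat, Cyp8b1 and Nr1h4), beside 17.6% of tested genes at that level. DESeq2, the kind of test used in the study and run here as the alternative, called 2, Baat and Cyp8b1, both lower. Its background was 8.96% of genes in either direction and 6.75% lower among those with a mean of at least 500. Every Fmo5-/- mouse lay below every WT mouse for 5 genes (Cyp8b1, Cyp27a1, Baat, Slc10a1 and Nr1h4), beside 21.9% of genes at that level. No gene among the 10 had all Fmo5-/- mice above all WT mice.

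**Figure D1:**
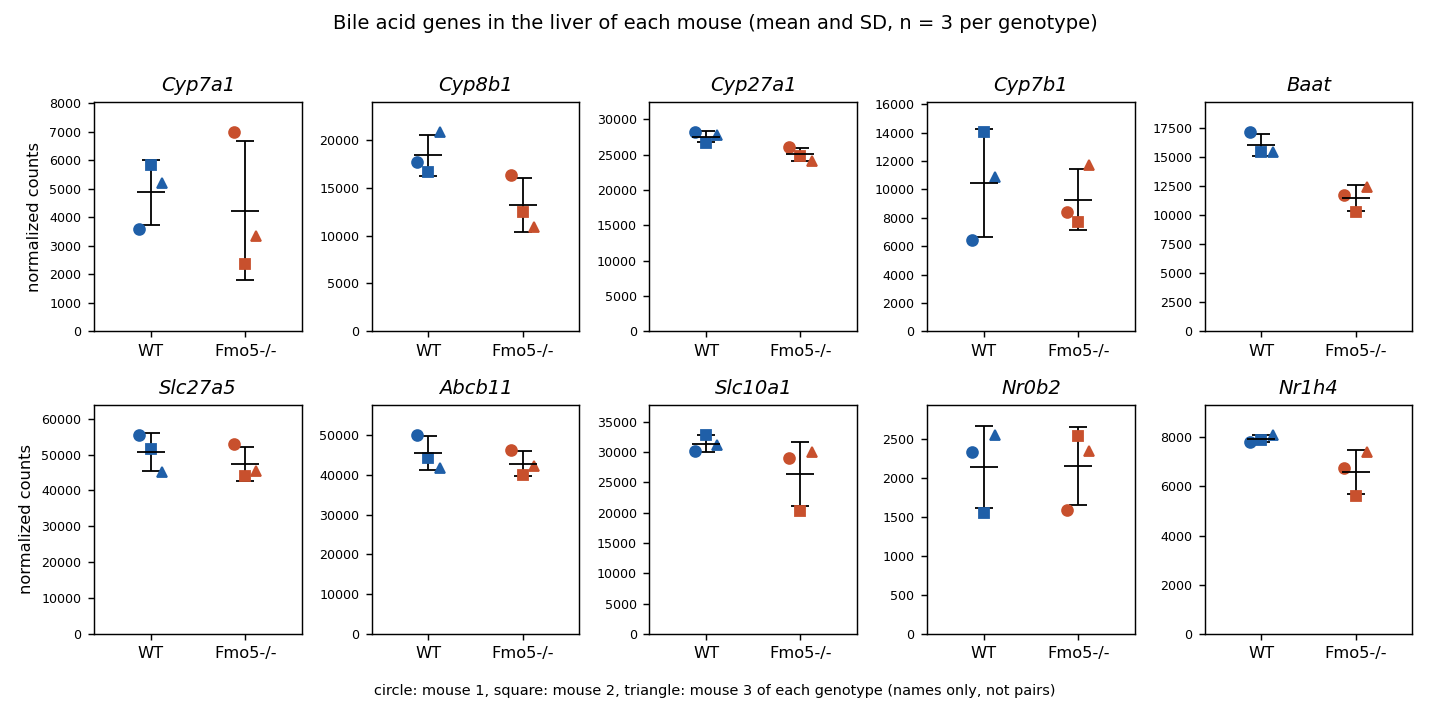
Normalized counts (axes from 0) of the 10 bile acid genes in each liver, with blue for WT, orange for Fmo5-/-, a symbol per mouse, and the mean and SD (n = 3) in black. Points of the genotypes do not overlap for Cyp8b1, Cyp27a1, Baat, Slc10a1 and Nr1h4, and the widest spread relative to the mean is that of Cyp7a1 in Fmo5-/- mice (coefficient of variation 57.6%).

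Among the 4 cytochrome P450 genes of the 10, Cyp8b1 had the largest difference between genotypes in size. This gene, which has 1 exon at chr9:121914356-121916305 on the minus strand (GRCm38), encodes the sterol hydroxylase that sets the share of cholic acid in the pool. Its normalized counts were 17712, 16707 and 20860 in WT mice and 16336, 12438 and 10867 in Fmo5-/- mice. The 3 Fmo5-/- values all lay below the WT values, although that of mouse 1 was close to the lowest WT value. The mean in Fmo5-/- livers was 0.717 times that in WT livers, a log2 fold change of -0.48 ± 0.16 (SE, 95% confidence interval -0.83 to -0.13). The adjusted p was 0.126 by edgeR and 0.0233 by DESeq2, and with no filter on low counts edgeR gave 0.000105, so the call rests on the test and the filter used.

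The sequence before the Cyp8b1 start site is shown because, of the genes with a promoter in the table used here, Cyp8b1 had the lowest log2 fold change. It covers 250 bases of chr9:121916306-121916555, read on the minus strand from RefSeq (GRCm38.p6), with capitals at the only motif found. Promoters were found for 6 of the 10 genes (7 promoters, since Slc10a1 has 2), and not for Cyp7a1, Cyp7b1, Baat and Slc27a5.
Cyp8b1: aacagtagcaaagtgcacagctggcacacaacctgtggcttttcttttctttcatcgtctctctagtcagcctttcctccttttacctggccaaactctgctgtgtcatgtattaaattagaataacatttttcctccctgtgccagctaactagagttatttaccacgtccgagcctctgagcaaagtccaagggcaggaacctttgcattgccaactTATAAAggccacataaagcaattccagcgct
The capitals mark TATAAA, 31 to 26 bases before the start. TATAAA was searched on the gene's strand and occurs in 7.59% of the same 250-base window of 32851 promoters. On both strands the windows were also searched for AGGTCA, the core element of many nuclear receptor sites (14% of promoters), for the extended element CAAGGTCA (1.33%), which contains AGGTCA, and for exact copies of the paired elements IR-1 (0.00609%) and DR-1 (0.0335%), which contain it too. Of these only AGGTCA was present, in Abcb11, Nr1h4 and the first Slc10a1 promoter. A match describes the letters and does not show a site in use. Only exact copies were searched, so the lack of a match does not show that a site is absent.

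Cyp7a1, the rate-limiting enzyme of the classical route (chr4:6265612-6275633), varied more between mice of 1 genotype than between genotypes. WT mice had 3594, 5818 and 5209 normalized counts and Fmo5-/- mice 6991, 2374 and 3333. The highest and the lowest of the 6 livers were both Fmo5-/-, so the genotypes overlapped throughout, and the coefficient of variation was 23.6% in WT and 57.6% in Fmo5-/- mice. Its log2 fold change was -0.20, with a confidence interval from -1.37 to 0.96 and an adjusted p of 0.844 by edgeR, so that neither a lower nor a higher level could be shown with these mice. Without Fmo5-/- mouse 2 the value became 0.08, and without Fmo5-/- mouse 1 it was -0.77.

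Transcripts of the liver clock also varied within genotypes. Dbp, a clock output gene, had 557, 1772 and 330.2 normalized counts in WT mice and 384.8, 324 and 817.8 in Fmo5-/- mice, so WT mouse 2 stood apart. Cyp7a1 is known to follow a daily rhythm in rodents. The part of the clock in the spread of Cyp7a1 was not tested, and of 17 clock genes and outputs neither edgeR nor DESeq2 called any (2 at an unadjusted p under 0.05 by edgeR). Bhlhe41 had the highest log2 fold change of the 17, 0.23, and Dbp the lowest, -0.80.

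Cyp27a1, the mitochondrial enzyme that opens the alternative route by oxidizing the sterol side chain (chr1:74713574-74737892), was the steadiest enzyme. WT mice had 28231, 26713 and 27825 normalized counts and Fmo5-/- mice 26080, 24864 and 24176. The Fmo5-/- mice all lay below the WT mice, by a small margin, and the coefficient of variation was 2.85% and 3.85%. The log2 fold change of -0.14 ± 0.08 (SE) had an adjusted p of 0.371 by edgeR and 0.3 by DESeq2.

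Cyp7b1, the oxysterol hydroxylase that follows in this route (chr3:18071950-18243338), lies on chromosome 3 at a distance of 79.6 Mb from Fmo5. Its normalized counts were 6464, 14054 and 10891 in WT mice and 8382, 7708 and 11715 in Fmo5-/- mice. WT mice 1 and 2 held the lowest and the highest of the 6 values, with every Fmo5-/- mouse between them. The log2 fold change was -0.18 ± 0.30 (SE), with an adjusted p of 0.79 by edgeR, and it became 0.10 without WT mouse 2.

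**Figure D2:**
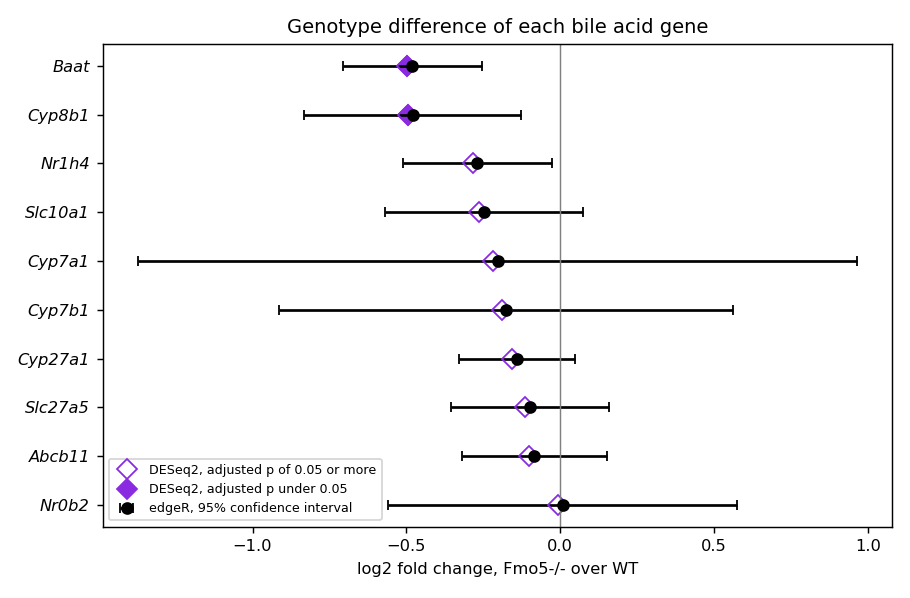
Log2 fold change (Fmo5-/- over WT) of the 10 bile acid genes by edgeR (black, with 95% confidence intervals) and by DESeq2 (violet diamonds, filled where its adjusted p was under 0.05). The intervals of Baat, Cyp8b1 and Nr1h4 lie below 0, and the widest, that of Cyp7a1, runs from -1.37 to 0.96.

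Of the conjugating enzymes, Baat had the larger difference. This gene (chr4:49489422-49506557), whose product joins activated bile acids to taurine or glycine, had 17117, 15417 and 15437 normalized counts in WT mice and 11718, 10237 and 12416 in Fmo5-/- mice. The highest Fmo5-/- value was well below the lowest WT value, and the SD was 975.8 in WT and 1113 in Fmo5-/- mice against means of 15990 and 11457. The log2 fold change was -0.48 ± 0.10 (SE, 95% confidence interval -0.71 to -0.25). By edgeR the adjusted p was 0.0552, just outside the threshold, with an unadjusted p of 0.000937, and by DESeq2 the adjusted p was 0.000755. Leaving out each mouse in turn gave log2 fold changes from -0.55 to -0.41 and edgeR adjusted p-values from 0.0395 to 0.177, of which only that without Fmo5-/- mouse 3 passed.

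Slc27a5, the ligase that supplies BAAT with coenzyme A thioesters of bile acids (chr7:12988346-12998192), overlapped between genotypes. WT mice had 55558, 51523 and 45185 normalized counts and Fmo5-/- mice 52905, 43896 and 45480. WT mouse 1 was highest and Fmo5-/- mouse 2 lowest, and the others lay within each other's range. The log2 fold change was -0.10 ± 0.11 (SE, 95% confidence interval -0.36 to 0.16), with an adjusted p of 0.666 by edgeR. It became -0.02 without WT mouse 1 and -0.18 without Fmo5-/- mouse 1.

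Because both genes were counted in the same library, their ratio does not depend on scaling between libraries. The log2 ratio of Baat to Slc27a5 counts was -1.70, -1.74 and -1.55 in WT mice and -2.18 (mouse 1), -2.10 and -1.87 in Fmo5-/- mice. Each Fmo5-/- mouse lay below each WT mouse, with a difference of -0.39. The exact two-sided permutation p was 0.1, the smallest that 3 mice against 3 can give, and 0.4 after adjustment over the 4 ratios compared. Cyp8b1 to Cyp7a1 gave a difference of -0.17 on the log2 scale and Cyp7b1 to Cyp7a1 one of 0.20, each with an exact permutation p of 0.8 and overlapping genotypes.

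The bile salt export pump gene Abcb11 (chr2:69238282-69342616) had 50085, 44281 and 41780 normalized counts in WT mice and 46293, 40044 and 42076 in Fmo5-/- mice. These values overlapped, and the log2 fold change of -0.08 had an interval running from -0.32 to 0.15, with an adjusted p of 0.688 by edgeR. It became -0.0023 without WT mouse 1 and -0.15 without Fmo5-/- mouse 1. Of the annotated exon bases of Abcb11, 3.01% are shared with genes on the opposite strand. Its upstream sequence is shown as that of an established FXR target in liver whose level did not separate the genotypes. It covers chr2:69342617-69342866, read on the minus strand (RefSeq, GRCm38.p6).
Abcb11: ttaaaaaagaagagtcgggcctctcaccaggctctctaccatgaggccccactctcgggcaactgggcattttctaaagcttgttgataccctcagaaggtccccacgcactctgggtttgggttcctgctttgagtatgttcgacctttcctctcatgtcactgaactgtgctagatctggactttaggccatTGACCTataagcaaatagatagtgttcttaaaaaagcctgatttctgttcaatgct
The capitals mark the reverse complement of AGGTCA, 56 to 51 bases before the start.

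Slc10a1, the sodium-dependent carrier that takes up conjugated bile acids from blood (chr12:80953183-80968705), had 30115, 32885 and 31233 normalized counts in WT mice and 29032, 20345 and 29945 in Fmo5-/- mice. All 3 Fmo5-/- values were below the WT values, but mice 1 and 3 only just, and mouse 2 was far lower. The log2 fold change was -0.25 ± 0.14 (SE), with an adjusted p of 0.351 by edgeR and 0.313 by DESeq2, and without Fmo5-/- mouse 2 it was -0.09. The log2 ratio of Abcb11 to Slc10a1 differed by 0.19 between genotypes, with an exact permutation p of 0.3 and overlapping values. It was 0.05 without Fmo5-/- mouse 2, 0.30 without Fmo5-/- mouse 3 and 0.29 without WT mouse 1.

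Fmo5-/- mouse 2 was the lowest of the 6 livers for 6 of the 10 genes, namely Cyp7a1, Baat, Slc27a5, Abcb11, Slc10a1 and Nr1h4. Fmo5-/- mouse 3 was lowest for Cyp8b1 and Cyp27a1, and WT mouse 1 was highest for 4 genes. Without Fmo5-/- mouse 2, Baat, Cyp8b1 and Nr1h4 had log2 fold changes of -0.41, -0.44 and -0.17.

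**Figure D3:**
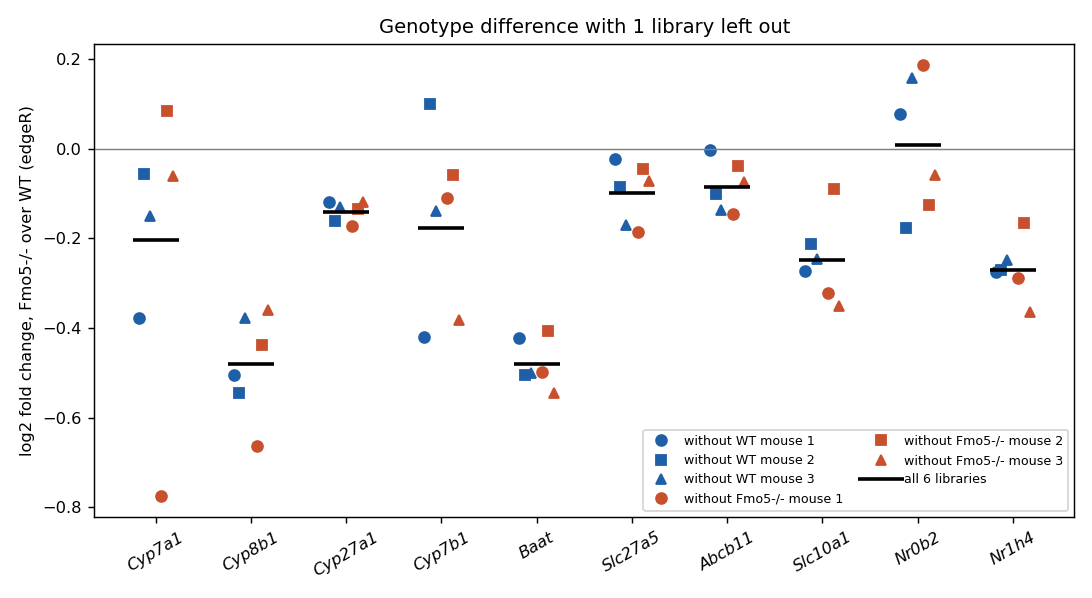
Log2 fold change (edgeR, Fmo5-/- over WT) of the 10 bile acid genes with all 6 libraries (black line) and with each library left out (symbols, blue for a WT and orange for an Fmo5-/- mouse). Baat stays between -0.55 and -0.41 and Cyp8b1 between -0.66 and -0.36, while Cyp7a1, Cyp7b1 and Nr0b2 cross 0.

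Of the sensing genes, Nr1h4, which encodes FXR (chr10:89454234-89533585), had 7816, 7900 and 8107 normalized counts in WT mice and 6739, 5612 and 7413 in Fmo5-/- mice. WT mice were nearly identical, with a coefficient of variation of 1.89%, and every Fmo5-/- mouse was lower. The log2 fold change was -0.27 ± 0.11 (SE, 95% confidence interval -0.51 to -0.03), with an adjusted p of 0.188 by edgeR and 0.144 by DESeq2, so it passed neither test.

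Nr0b2, the FXR target that encodes SHP (chr4:133553376-133556536), had 2333, 1551 and 2562 normalized counts in WT mice and 1589, 2545 and 2348 in Fmo5-/- mice. Both genotypes held 1 low and 2 high livers over the same range. Its log2 fold change of 0.0078 had a confidence interval from -0.56 to 0.57 and an adjusted p of 0.989 by edgeR, and the sign changed with several settings. The upstream 250 bases, chr4:133553126-133553375 on the plus strand (RefSeq, GRCm38.p6), are shown as those of the second established FXR target, for comparison with Abcb11.
Nr0b2: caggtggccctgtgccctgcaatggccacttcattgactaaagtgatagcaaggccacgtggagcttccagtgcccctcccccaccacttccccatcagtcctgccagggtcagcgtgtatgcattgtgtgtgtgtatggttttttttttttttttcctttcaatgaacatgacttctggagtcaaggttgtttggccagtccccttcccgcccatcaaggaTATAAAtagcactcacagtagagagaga
The capitals mark TATAAA, 28 to 23 bases before the start, and none of the other motifs was present in this window.

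Levels between genes were compared per length, as RPKM, that is reads divided by exon length and by the counts on genes after TMM scaling. In WT livers Slc27a5 was highest, at 426 ± 43.9 RPKM (SD, n = 3), followed by Slc10a1 (293 ± 13.0) and Cyp27a1 (260 ± 7.41). Below them came Cyp8b1 (194 ± 22.8), Abcb11 (181 ± 17.0) and Baat (169 ± 10.3), and the ranges of these 3 all overlapped each other. Cyp7b1 (99.0 ± 36.1) and Nr1h4 (70.6 ± 1.33) overlapped too, as did Nr0b2 (38.9 ± 9.59) and Cyp7a1, which was lowest at 23.9 ± 5.64 RPKM. In Fmo5-/- livers the order of the means was the same, except that Abcb11 (170 ± 12.7) stood above Cyp8b1 (139 ± 29.6), with overlapping ranges. Slc10a1 (189.5 to 278.9 RPKM) overlapped Cyp27a1 (227.9 to 245.8) there, which it did not in WT livers. Baat, at 121 ± 11.7 RPKM, overlapped Cyp8b1 and, unlike in WT livers, Cyp7b1, while Nr0b2 and Cyp7a1 overlapped in both genotypes. With the longest transcript as length the WT order stayed as it was.

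**Figure D4:**
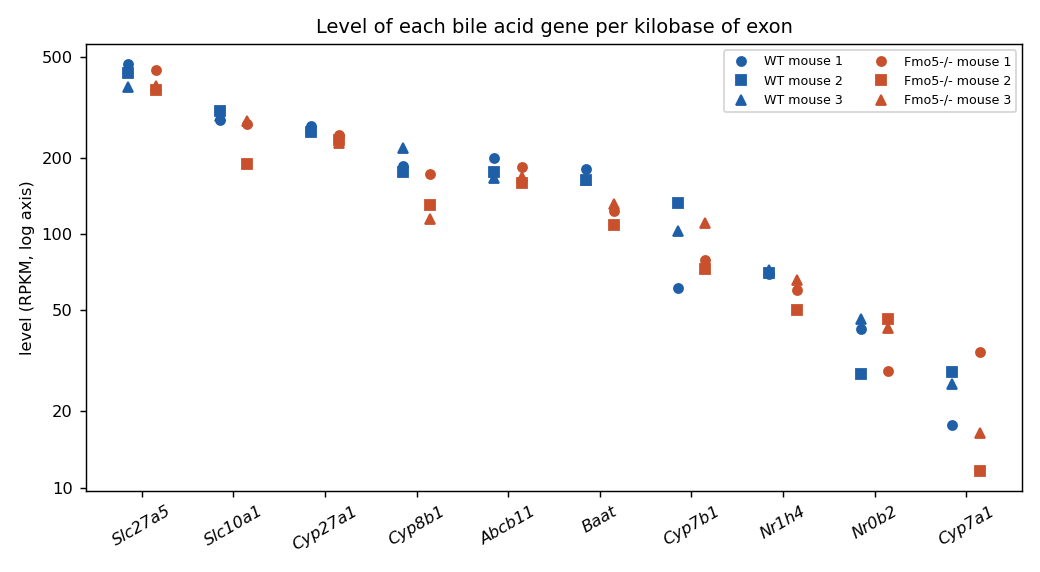
Level (RPKM, log axis) of the 10 bile acid genes in each liver, ordered by the WT mean, with a symbol per mouse. Levels span from 426 RPKM (mean of Slc27a5) to 23.9 RPKM (Cyp7a1) in WT livers, and the genotypes lie close together for most genes.

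Of 4 further lists of bile acid genes, holding 52 genes, 46 genes passed the filter on low counts. Of these, edgeR called 1 lower and 0 higher, and DESeq2 called 6 lower and 1 higher, to be read against the backgrounds above. In either direction, 13 of the 46 reached an unadjusted p under 0.05 by edgeR. So did 3648 of all 16734 genes tested and 1974 of the 7819 with a mean of at least 500. The list of 14 other genes of synthesis, enzymes and carriers, included 12 tested genes, and all 12 had a lower mean in Fmo5-/- livers, with a median log2 fold change of -0.25. A lower mean was found for 49.2% of all tested genes and 63.95% of those with a mean of at least 500. None of the 12 was called by edgeR (6 at an unadjusted p under 0.05), and DESeq2 called 3 lower. These were Abcd3, the peroxisomal transporter that imports bile acid precursors, Hsd17b4, an enzyme of peroxisomal side-chain shortening, and Slc27a2, an acyl-coenzyme A synthetase. These 3 also serve fatty acid oxidation.

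Abcd3 had 36873, 35963 and 34742 normalized counts in WT mice and 27625, 21444 and 25225 in Fmo5-/- mice (log2 fold change -0.53, adjusted p of 0.0523 by edgeR and 0.00026 by DESeq2). Abcd3 lies on the same chromosome as Fmo5 (chr3:121758774-121815302 and chr3:97628804-97655282). The part of this position in its values was not tested. Hsd17b4 had 31175, 30338 and 24723 in WT mice and 21626, 20271 and 19298 in Fmo5-/- mice (log2 fold change -0.49, adjusted p of 0.0612 by edgeR and 0.00107 by DESeq2). Slc27a2 had 52609, 53351 and 47542 in WT mice and 40580, 39109 and 39406 in Fmo5-/- mice (log2 fold change -0.37, adjusted p of 0.0711 by edgeR and 0.00231 by DESeq2). Like Baat, these 3 genes lay lower without overlap between genotypes, as did 21.9% of genes with a mean of at least 500. They were named because DESeq2 called them. Hsd3b7, an early enzyme of both routes, was listed at 0 in all 6 libraries, and 99.2% of its annotated exon bases are shared with 2 overlapping genes, so its level could not be read.

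In the list of 8 genes for canalicular export and bile formation, 5 had a lower and 3 a higher mean. Lower means made up 49.2% of all tested genes and 63.95% of those with a mean of at least 500. DESeq2 called Abcg2, an exporter of sulfated and xenobiotic compounds (log2 fold change -0.45, edgeR adjusted p 0.051), and Abcb4, which moves phosphatidylcholine into bile (-0.39, edgeR adjusted p 0.11), both lower. It called Abcg5, a subunit of the sterol exporter, higher (0.41, edgeR adjusted p 0.0786). WT mice had 3980, 3102 and 3641 normalized counts of Abcg5 and Fmo5-/- mice 5027, 4364 and 4876, without overlap and opposite in direction to Baat and Cyp8b1. Of the 7819 genes with a mean of at least 500, 734 were higher without overlap.

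Among the 9 genes of sinusoidal transport, 8 were tested and 1 fell by edgeR. This was Ephx1, which encodes microsomal epoxide hydrolase, an enzyme known mainly for detoxification and also described in bile acid uptake. It had 24821, 21661 and 21608 normalized counts in WT mice and 16633, 14629 and 14850 in Fmo5-/- mice, a log2 fold change of -0.56 ± 0.10 (SE), with an adjusted p of 0.0378 by edgeR and 1.62e-05 by DESeq2. The call of Ephx1 by edgeR held without Fmo5-/- mouse 3 (adjusted p 0.0465) and was lost without any other single mouse, where the adjusted p reached at most 0.124. It was lost too with a limit of 500 set before the fit (0.0599).

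The receptors and regulators around these genes, 21 in number with 18 tested, had no call by edgeR or DESeq2, and 0 reached an unadjusted p under 0.05 by edgeR. Their median log2 fold change was -0.03. Ppara, the fatty acid receptor, was lowest at -0.39 (edgeR adjusted p 0.248). Onecut1, a hepatocyte transcription factor gene that can induce Cyp7a1, was highest at 0.58 with a standard error of 1.49, since its normalized counts ran from 110.1 to 2641 within the 6 livers. Of the annotated exon bases of Onecut1, 52.8% are shared with a gene on the same strand, so its level was read only in part. Fgfr4 and Klb, chosen after their values were seen because they form the hepatic receptor for the ileal hormone FGF15, had log2 fold changes of -0.05 and -0.21 (edgeR adjusted p 0.807 and 0.657).

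**Figure D5:**
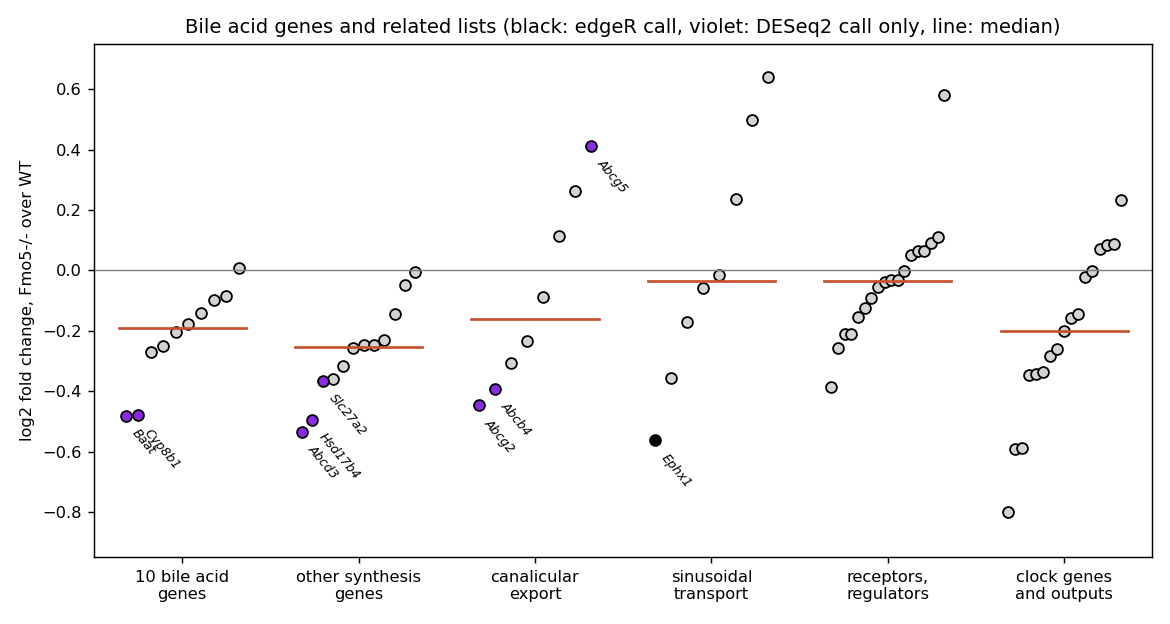
Log2 fold change (edgeR, Fmo5-/- over WT) of each tested gene, for the 10 bile acid genes, 4 lists of related genes and the clock genes (lines: medians, black: called by edgeR, violet: called by DESeq2 only). All 12 other synthesis genes lie below 0, beside 49.2% of all tested genes and 63.95% of those with a mean of at least 500. Abcg5 is the only called gene above 0.

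The hepatocyte zones were read from markers of the same libraries. Of 8 perivenous markers 7 had a higher mean in Fmo5-/- livers, beside 8501 of all 16734 genes tested. Among the 7819 genes with a mean of at least 500, 2819 were higher. By edgeR 1 was called higher, Cyp1a2 (log2 fold change 0.65, adjusted p 0.0208), beside 113 of all tested genes and 43 at that level. At an unadjusted p under 0.05 by edgeR there were 2, beside 3648 of all tested genes and 1974 at that level, in either direction. DESeq2 called 1 higher, beside 734 of all tested genes and 219 at that level. The edgeR call of Cyp1a2 was lost without WT mouse 1 (adjusted p 0.0855) or Fmo5-/- mouse 1 (0.0778) and held without each of the others. Of 7 periportal markers 5 had a lower mean, with 0 called by edgeR (3 at an unadjusted p under 0.05) and 3 called lower by DESeq2, beside 63.95% of genes with a mean of at least 500 that had a lower mean, 17.6% lower at an unadjusted p under 0.05 by edgeR and 6.75% called lower by DESeq2. The summed levels overlapped, at 7004 to 9961 CPM in WT and 8313 to 10120 CPM in Fmo5-/- livers for the perivenous list, and 4287 to 4493 CPM and 3500 to 4519 CPM for the periportal list. The part of zonation in the values of Cyp8b1, Baat and the other genes was not tested.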

How the data were processed

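Liver mRNA was sequenced as single reads, which the authors mapped to mm10 with STAR. They deposited the read counts per gene of each library. The annotation release and strand choice are not given in the sources used here, so the counts over both strands were analysed. The authors also deposited a table of normalized counts, a signal scaled by DESeq2 size factors. The ratio of the counts over both strands to it was constant within each library (0.893 to 1.11), so it rests on those counts. The columns of that table with the authors' own fold changes and p-values were not used. Reads listed ranged from 67753857 to 75632821 per library, of which 66.2 to 69.2% were counted on genes and 3.52 to 3.98% were ambiguous. Reads mapped to several places made up 11.8 to 13.1% in WT and 10.4 to 11.5% in Fmo5-/- libraries. Unmapped reads made up 9.72 to 10.1% and 9.10 to 9.20%, so neither share overlapped between genotypes. Reads outside genes made up 8.63% and 8.28% in Fmo5-/- mice 2 and 3 and 6.86 to 7.02% in the others. The part of these shares in the values above was not tested. Reads not counted on a gene were left out.

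Genes were filtered (filterByExpr, minimum count 10, leaving 16734), scaled by TMM and tested with edgeR 4.0.16 (robust quasi-likelihood test, R 4.3.3), with Benjamini-Hochberg adjustment over all tested genes and a threshold of 0.05. DESeq2 1.42.0 was the alternative, and its adjusted p covers 15571 genes. The scripts were tested on simulated data, drawn for all tested genes. Of 67 genes given a log2 change of 0.5 in size, edgeR called 12 (17.9%) and DESeq2 19 (28.4%). Normalized counts are on the TMM scale, and RPKM used the union of exons of GENCODE vM21 (GRCm38). The counting floor of 3 counts is 0.0573 to 0.0668 CPM. Ratios were tested by exact two-sided permutation of 3 mice against 3. Each mouse was 1 library, and numbers given to mice only name them. Pairs of libraries of 1 genotype differed by more than counting noise (chi-square per degree of freedom of 32.4 to 51.9), so none was the same library deposited again. All 10 genes and Fmo5 are named, and of each pathway list the genes called by edgeR or DESeq2 (at most 6), or else the highest and the lowest. The members and lists were chosen with earlier results of these data known. No batch was given by the labels.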

Additional observations from a re-analysis of the deposited data

How the results depend on the processing

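Of the log2 fold changes of the 10 genes, those of Cyp27a1, Slc27a5, Abcb11, Slc10a1 and Nr1h4 kept their direction and their side of the threshold under all 12 alternatives. Their size did move: with a library left out Slc27a5 ran from -0.18 to -0.02 and Abcb11 from -0.15 to -0.0023. Cyp8b1 passed the threshold with DESeq2 (-0.50) and with no filter on low counts (-0.49), as did Baat (-0.50 and -0.49), and the leave-one-out range of Baat was -0.55 to -0.41. The number of genes among the 10 called lower was then 2 in both, and 0 to 1 with a library left out. The leave-one-out ranges of Cyp7a1 (-0.774 to 0.0834), Cyp7b1 (-0.42 to 0.10) and Nr0b2 (-0.18 to 0.19) crossed 0. Nr0b2 was also reversed with DESeq2 (-0.0073) and with no filter (-0.0036), and no setting called these 3. Of all genes, 229 were called by edgeR, 1395 by DESeq2, 1989 with no filter, 53 with a limit of 500 set before the fit, and 31 to 763 with a library left out. Of the pathway lists, genes called lower numbered 6 with DESeq2, 3 with RLE factors, 2 when the 20 most abundant genes were left out of the scaling, 10 with no filter, 0 with the limit of 500 and 0 to 1 with a library left out. Genes called higher numbered 1 with DESeq2 and 1 with no filter. The ratios of Cyp8b1 to Cyp7a1 (-0.48 to 0.11) and of Cyp7b1 to Cyp7a1 (-0.0805 to 0.695) changed sign with a library left out. The cause was not tested. No paired analysis was possible because the labels give no replicate numbers shared between genotypes.

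With 3 mice per genotype, the 95% confidence intervals of the log2 fold change included 0 for all of the 10 genes but Baat, Cyp8b1 and Nr1h4. The lowest count of any of the 10 in a library was 1390.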

Other observations

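Slc10a2, the apical sodium-dependent bile acid transporter of ileum and bile ducts, stood in the marker lists and was chosen after its values were seen. It had 2354, 3055 and 2148 normalized counts in WT mice and 1398, 1681 and 1426 in Fmo5-/- mice, so the genotypes did not overlap. Of genes with a mean of at least 500, 21.9% were lower without overlap. Slc10a2 fell by 0.75 on the log2 scale (SE 0.14), with an adjusted p of 0.0459 by edgeR and 5.89e-05 by DESeq2. Without single mice the log2 fold change ran from -0.84 to -0.58 and the edgeR adjusted p from 0.0368 to 0.135, and the call held without WT mouse 3 or Fmo5-/- mouse 3 and was lost without any of the others. It was also lost with a limit of 500 set before the fit (edgeR adjusted p 0.07). The other markers of bile duct cells were not called by edgeR (0 of 8 tested at an unadjusted p under 0.05) or DESeq2. Without Slc10a2, the summed level of the other 9 markers was 89.5 to 126 CPM in WT and 102 to 111 CPM in Fmo5-/- livers, with Krt19 at 46.6 to 110.4 and at 52.2 to 88.1 normalized counts.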
